A study of Mus musculus with 18 samples.

Results

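The effect of a calcium sensor transgene on gene expression in heart was set against its effect in skeletal muscle. TN-XXL is a fluorescent protein that reports calcium: a piece of troponin C, the calcium switch of striated muscle, joins a cyan to a yellow fluorescent protein. The contrast used 12 of the 18 arrays of the series, in 4 groups of 3: wild type skeletal muscle, transgenic skeletal muscle, wild type heart and transgenic heart. All mice were C57BL/6, the wild type mice were littermates of the transgenic ones, and the transgenic arrays are titled +/+. No treatment is labelled. The promoter of the transgene, the number of founder lines, the age and sex of the mice, the hour of sampling, the muscle and heart chambers taken, and whether a heart and a muscle array came from the same animal were each not given in the sources used here. P-values therefore measure how far these samples spread, which may be technical, and the number of arrays limits the precision.

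For each of 35382 probe sets, the transgenic minus wild type difference in skeletal muscle was subtracted from that in heart, on the log2 scale of the deposited values. A positive interaction means that the transgenic value stood relatively higher in heart. A difference was called where its p-value from 1 limma fit, adjusted by Benjamini and Hochberg's method across the whole table, was under 0.05. Shared genes were called in both tissues with the same sign and without an interaction call. Tissue-limited genes were called in that tissue and in the interaction but not in the other tissue, and opposite genes were called in both with different signs. Because these calls chose the members of each class, their values are given as a description.

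Heart and skeletal muscle are both striated, but the heart beats on its own rhythm and burns mostly fatty acids, while a skeletal fibre contracts when its nerve fires and answers to growth signals that set its size. Both tissues run a circadian clock, in which BMAL1 with CLOCK or NPAS2 binds E-box elements and drives the period and cryptochrome genes, whose products then shut that drive off. The level of clock transcripts depends on the hour at which a tissue is taken.

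Of all probe sets, 447 were called in heart and 1964 in skeletal muscle. In heart 214 were higher (0.605% of those tested) and 233 lower (0.659%) in transgenic mice. In skeletal muscle 888 were higher (2.51%) and 1076 lower (3.04%). Both tissues called 167 probe sets, and 155 of these had the same sign, which made up 34.7% of the heart calls and 7.89% of the muscle calls. The interaction was called for 401 probe sets (1.13%), 244 relatively higher in heart (0.690%) and 157 relatively lower (0.444%). Among these 401, the larger difference lay in skeletal muscle for 310 and in heart for 91. The shared class held 145 probe sets (0.410%), and 10 more were shared but of unequal size (0.0283%). A further 62 were limited to heart (0.175%), 299 to skeletal muscle (0.845%) and 12 were opposite (0.0339%). These shares over all probe sets are the background for the counts of list members given below. The median SE of the interaction was 0.19, against 0.14 for the difference within a tissue. These classes rest on a spread pooled over all 4 groups: from its own arrays alone, heart had 36 calls and skeletal muscle 838, with 19 probe sets shared, 1 unequal, 11 heart limited and 0 opposite. Without 1 array, the interaction calls numbered 196 to 286.

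**Figure D1:**
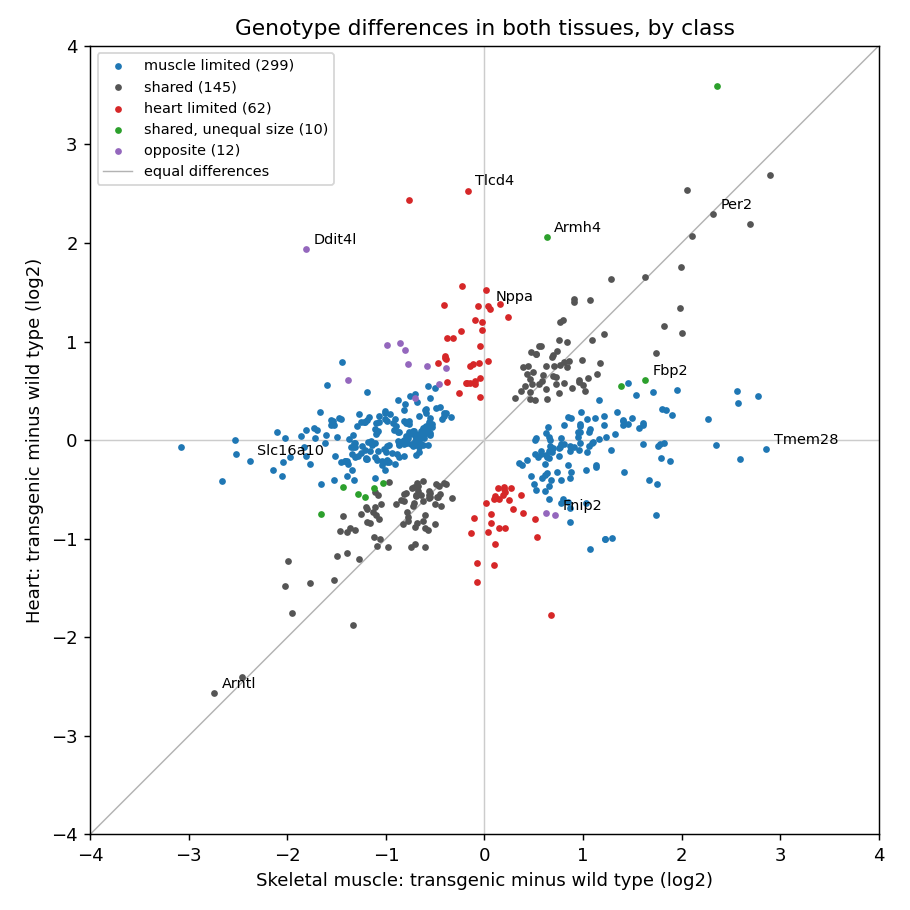
Genotype difference (transgenic minus wild type, log2) in heart and in skeletal muscle for the probe sets of the 5 classes. Of the 299 muscle-limited probe sets, 232 have a heart interval within 1.5-fold, and of the 62 heart-limited ones, 46 have such a muscle interval; others lie farther from the line of no difference, such as Rrad at −1.11 in heart and Fam124b at 0.68 in muscle.

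The tissue labels were checked against marker genes. All 7 cardiomyocyte markers stood above the median signal in heart, and 5 of them, Tnni3, Nkx2-5, Mybpc3, Hand2 and Tbx20, did not in skeletal muscle. All 9 skeletal fibre markers stood above the median in muscle, and 7, among them Myh4, Actn3 and Pvalb, did not in heart. Arrays of the same group correlated at 0.982 to 0.987. The summed linear signal of 13 endothelial markers ran from 1260 to 1404 in wild type and from 999 to 1223 in transgenic muscle, and from 2719 to 2863 and from 2197 to 2454 in heart. Other marker sums also stood apart by genotype. In muscle, 8 adipocyte markers summed to 330 to 452 in wild type and 475 to 554 in transgenic arrays, 11 of smooth muscle to 3872 to 3895 and 4026 to 4153, 12 of atria to 314 to 352 and 433 to 509, and 7 of neurons to 58 to 67 and 49 to 52. In heart, 4 Schwann cell markers summed to 652 to 702 and 856 to 946, with S100b and Egr2 not above the median. There 5 satellite cell markers summed to 40 to 42 and 43 to 50, with 4 of the 5 not above it. Not above the muscle median were 6 of the 7 neuron, 4 of the 12 atrial and 2 of the 8 adipocyte markers. Most members of the neuron sum in muscle and the satellite cell sum in heart thus lay near background. The smooth muscle list includes pericyte genes and Des, and 0 of its 11 members were called in muscle. The atrial list includes Pam, given below among the genes that rose in muscle. Which members carry these sums was not worked out, so they do not show a change in a cell type. Of these lists, 3 endothelial members were called lower and 2 atrial members higher in muscle, where 1 satellite cell member was called lower. In heart, 1 endothelial member was called lower, and 2 atrial and 1 Schwann cell members higher. The part of these members in the results was not tested. Fewer cells of a type and less RNA per cell cannot be told apart in such bulk samples.

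The clearest agreement in direction between the tissues was in the circadian clock. As heart and muscle may have come from the same animals, the tissues may not be independent of each other. Of 6 measured genes of the activating arm and its partners, 4 fell in heart and 3 in muscle. Of 9 measured genes of the repressing arm, 7 rose in heart and 6 in muscle. None of these 15 genes had an interaction call in limma. The median difference of the activating list was −1.17 in heart and −0.87 in muscle and that of the repressing list 1.40 and 0.91, against 0.003 and 0.016 over all probe sets.

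Arntl encodes BMAL1, the activator at the centre of the clock. Its log2 signal was 5.43, 5.65 and 5.94 in wild type muscle and 3.19, 3.00 and 2.62 in transgenic muscle. In heart it was 5.54, 5.62 and 5.58 in wild type and 3.25, 3.09 and 2.69 in transgenic mice. Every transgenic array lay below every wild type array of its tissue. Arntl was 5.95-fold lower in heart (−2.57 ± 0.18 SE, adjusted p = 0.00023) and 6.67-fold lower in muscle (−2.74 ± 0.18, adjusted p = 2.42e-05). The interaction of 0.17 had a 95% interval of −0.41 to 0.74. Npas2, which encodes an alternative partner of BMAL1, fell by 1.75 ± 0.20 in heart and by 1.95 ± 0.20 in muscle. Nfil3, a repressor that acts at D-box elements, fell by 1.88 ± 0.23 and 1.33 ± 0.23.

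The period genes, which encode repressors that close the feedback loop, moved the other way in both tissues. Per2 stood at 2.90, 2.70 and 2.97 in wild type and 4.87, 5.08 and 5.58 in transgenic muscle. In heart it stood at 3.47, 3.17 and 3.28 and then 5.33, 5.55 and 5.89. The genotypes did not overlap in either tissue. Its rises of 2.29 ± 0.19 in heart and 2.32 ± 0.19 in muscle had close estimates. The interval of −0.63 to 0.56 for the interaction reached past 1.5-fold. Per1 rose by 2.07 ± 0.24 in heart and 2.11 ± 0.24 in muscle. Per3 rose by 2.54 ± 0.23 and 2.06 ± 0.23. Ciart, which encodes a further repressor of BMAL1, rose by 2.69 ± 0.32 in heart and 2.90 ± 0.32 in muscle, where its wild type mean of 2.39 lay under the muscle median of 2.45, and its second probe set was also shared. Cry2, a cryptochrome, rose by 0.74 ± 0.13 and 0.84 ± 0.13, although its heart call was lost in 4 of the 12 fits that each left out 1 array. Nr1d2, which encodes the nuclear repressor REV-ERB beta, rose by 1.40 ± 0.11 in heart and 0.91 ± 0.11 in muscle, with no interaction call (adjusted p = 0.233).

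**Figure D2:**
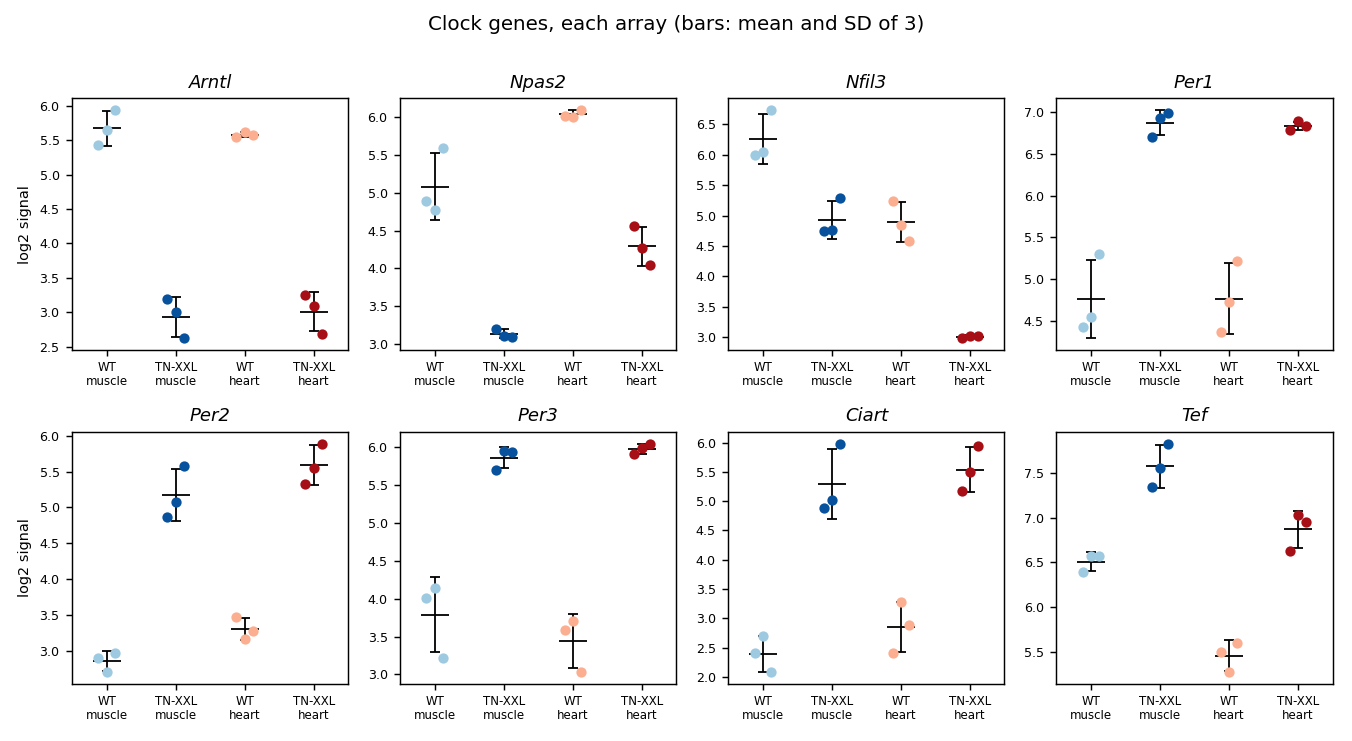
Log2 signal of 8 clock genes on each of the 12 arrays, with the mean and SD of each group of 3. Arntl, Npas2 and Nfil3 were lower and Per1, Per2, Per3, Ciart and Tef higher in transgenic mice in both tissues, with no overlap between genotypes.

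Of 8 measured output genes of the clock, 5 rose in heart and 3 in muscle. Tef, a PAR bZIP factor that activates D-box genes, rose by 1.42 ± 0.15 in heart and 1.07 ± 0.15 in muscle. Usp2, a deubiquitinase, rose by 1.02 ± 0.09 and 1.09 ± 0.09, and Tspan4, a tetraspanin, by 1.2 ± 0.13 and 0.77 ± 0.13. Wee1, a kinase that holds back mitosis, rose by 1.88 ± 0.24 in heart and differed by 0.77 ± 0.24 in muscle without passing (adjusted p = 0.0999), and its interaction was not called (adjusted p = 0.185).

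Hlf, another PAR bZIP factor, was the member of the output list with an interaction call. Its values in muscle were 4.47, 4.52 and 4.12 in wild type and 4.27, 4.56 and 4.77 in transgenic mice, and in heart 4.48, 4.60 and 4.52 and 5.76, 5.80 and 6.18. The genotypes overlapped in muscle and stood apart in heart, where Hlf rose 2.6-fold (1.38 ± 0.16, adjusted p = 0.00358). The muscle difference was 0.16 ± 0.16, with an interval of −0.19 to 0.51. The interaction of 1.22 ± 0.23 (adjusted p = 0.0302) was lost in 9 of the 12 fits without 1 array (adjusted p 0.0607 to 0.0839).

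The promoters of the shared genes were searched for clock elements. In 300 bases around the start site (250 before and 50 after, RefSeq, GRCm38.p6), the E-box CACGTG, the D-box TTATGTAA, the ROR response element and the glucocorticoid response element were sought on both strands. Of 43 shared genes higher in transgenic mice that had a promoter entry, 7 held an E-box (16.3%), as did 4 of 52 shared lower genes (7.69%). The share was 9.57% of all named genes on the array, 17.9% of heart-limited genes, and 13.5% and 10.3% of muscle-limited genes that were higher and lower. A D-box occurred in 2 of the 43 (4.65%), Per3 and Coq10b, against 0.951% of named genes on the array. The ROR element occurred in Arntl and Tpst2 among shared genes and in 0.319% of named genes, and the glucocorticoid element in 0 of the shared genes. These are matches of letters, described without a test. The 250 bases before the start site are shown for 3 shared genes that rose and hold such elements, with each E-box or D-box in capitals. For Arntl, 30 bases are shown around the ROR element, which is in capitals. It begins at base 27 after the start site of the more downstream of the promoter entries of Arntl.
Ciart, chr3:95882229-95882478, minus strand: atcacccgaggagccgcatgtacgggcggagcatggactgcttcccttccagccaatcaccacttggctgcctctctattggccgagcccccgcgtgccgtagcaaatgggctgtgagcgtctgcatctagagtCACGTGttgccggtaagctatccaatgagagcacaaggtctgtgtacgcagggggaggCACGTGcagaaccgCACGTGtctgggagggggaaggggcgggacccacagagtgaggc
Per1, chr11:69098699-69098948, plus strand: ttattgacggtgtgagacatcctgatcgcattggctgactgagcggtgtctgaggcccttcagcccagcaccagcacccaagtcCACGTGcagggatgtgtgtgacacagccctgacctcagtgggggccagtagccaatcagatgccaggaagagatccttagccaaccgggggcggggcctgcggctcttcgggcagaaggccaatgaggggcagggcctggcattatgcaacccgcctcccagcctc
Per3, chr4:151044666-151044915, minus strand: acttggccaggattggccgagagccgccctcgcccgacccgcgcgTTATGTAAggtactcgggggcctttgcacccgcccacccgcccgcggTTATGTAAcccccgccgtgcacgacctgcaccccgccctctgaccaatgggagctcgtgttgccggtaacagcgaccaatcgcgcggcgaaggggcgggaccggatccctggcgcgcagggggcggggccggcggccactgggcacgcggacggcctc
Arntl, chr7:113207527-113207556, plus strand: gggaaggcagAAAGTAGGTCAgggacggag

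Ciart carried 3 E-boxes in this stretch, which began 116, 58 and 44 bases before the start site. Per1 carried 1 at 166 bases, and Per3 carried 2 D-boxes at 205 and 158 bases. Ciart, Per1 and Per3 are among the genes whose rise in both tissues is given above, and Arntl is the one with the deepest shared fall. The 250 bases held none of the elements sought for Npas2, Nfil3, Nr1d2, Usp2 or another Per1 entry. No promoter entry was found for Per2.

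Of the 145 shared probe sets, 66 were higher and 79 lower in both tissues, covering 118 named genes. The median absolute difference was 0.75 in heart and 0.78 in muscle. For 71 of the 145, the 95% interval of the interaction lay within 1.5-fold in either direction, and for 6 the estimate itself exceeded 1.5-fold. A lack of an interaction call therefore shows like size only for the first of these. Interaction intervals of Arntl, Npas2, Nfil3, Per1, Per2, Per3 and Ciart each reached past 1.5-fold, so like size was not shown for these clock genes.

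Nmrk2, the nicotinamide riboside kinase of muscle, which feeds NAD synthesis, ranked next to the clock genes among those that rose. Its values were 6.57, 6.82 and 6.20 in wild type and 8.51, 8.37 and 8.68 in transgenic muscle, and 4.15, 4.47 and 4.20 and 5.93, 5.87 and 6.31 in heart. The genotypes did not overlap in either tissue. It rose 3.39-fold in heart (1.76 ± 0.17, adjusted p = 0.00129) and 3.97-fold in muscle (1.99 ± 0.17, adjusted p = 0.000109). Of 12 measured genes of NAD metabolism, Nmrk2 was the 1 called in heart, and 3 rose in muscle. Fbxo36, an F-box protein, rose by 1.65 ± 0.14 in heart and 1.63 ± 0.14 in muscle, with an interval of −0.43 to 0.47 for the interaction. Hyal3, a member of the hyaluronidase family, rose by 1.63 ± 0.19 and 1.28 ± 0.19.

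Some shared genes rose more in muscle by the estimate without an interaction call. Coq10b, a coenzyme Q-binding protein, rose by 1.16 ± 0.17 in heart and 1.82 ± 0.17 in muscle (interaction adjusted p = 0.285), while a second probe set of the gene was not above the median and showed no call. Mzb1, an endoplasmic reticulum protein known from plasma cells, rose by 1.34 ± 0.18 and 1.98 ± 0.18 (adjusted p = 0.334). Lrrc51 rose by 1.09 ± 0.16 and 2.00 ± 0.16 (adjusted p = 0.101).

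Shared genes that fell included mitochondrial enzymes. Adhfe1, a transhydrogenase of hydroxy acids in mitochondria, stood at 7.46, 7.46 and 7.71 in wild type and 5.56, 5.6 and 5.48 in transgenic muscle, and at 8.62, 8.62 and 8.51 and 7.49, 7.50 and 7.09 in heart. Every transgenic array was lower than every wild type array of its tissue. The fall was 1.23 ± 0.12 in heart and 1.99 ± 0.12 in muscle, and the interaction of 0.77 ± 0.17 lay just outside the threshold (adjusted p = 0.0688). Mlycd, malonyl-CoA decarboxylase, which relieves the block on fatty acid entry into mitochondria, fell by 1.18 ± 0.15 and 1.5 ± 0.15. Mecr, an enoyl reductase of mitochondrial fatty acid synthesis, fell by 1.07 ± 0.10 and 1.09 ± 0.10, and Etfa, which passes electrons from fatty acid oxidation to the respiratory chain, by 0.73 ± 0.09 and 0.79 ± 0.09. Of 25 measured genes of fatty acid uptake and oxidation, 2 fell in heart and 5 in muscle. Among all probe sets, 0.659% fell in heart and 3.04% in muscle.

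Mfsd4b1, a sodium-coupled glucose transporter, fell by 1.45 ± 0.13 in heart and 1.77 ± 0.13 in muscle. Mfsd4b3-ps, named as a pseudogene of that family, fell by 1.42 ± 0.20 and 1.53 ± 0.20, and near-identical copies can share probe signal. Ypel2 fell by 1.21 ± 0.12 and 1.27 ± 0.12. Ddah1, which degrades an inhibitor of nitric oxide synthase, fell by 1.15 ± 0.19 and 1.40 ± 0.19, but its heart call was lost in 4 of the 12 fits without 1 array. The other 19 of the 20 shared genes chosen by rank were called in both tissues in every such fit.

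Rcan1, an inhibitor of the calcium-activated phosphatase calcineurin, stood at 7.65, 7.96 and 8.18 in wild type and 7.07, 6.88 and 6.90 in transgenic muscle, and at 8.43, 8.43 and 8.07 and 7.29, 7.15 and 7.24 in heart. The genotypes did not overlap in either tissue. It fell by 1.08 ± 0.14 in heart and 0.98 ± 0.14 in muscle, with an interval of −0.55 to 0.35 for the interaction. Hspa5, the main chaperone of the endoplasmic reticulum, fell by 0.65 ± 0.09 and 0.50 ± 0.09.

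Among the named genes of unequal size, Armh4 was the 1 with the larger difference in heart. Its heart values were 4.14, 3.85 and 3.86 in wild type and 5.89, 5.89 and 6.24 in transgenic mice, against 2.11, 2.00 and 2.04 and 2.93, 2.55 and 2.57 in muscle. Transgenic values were higher throughout, by 2.06 ± 0.14 in heart and 0.63 ± 0.14 in muscle (interaction 1.42 ± 0.19, adjusted p = 0.00667). Fbp2, the fructose bisphosphatase of muscle, which serves glycogen resynthesis, rose by 0.61 ± 0.10 in heart and 1.63 ± 0.10 in muscle (interaction −1.02 ± 0.14). Coasy, which completes coenzyme A, rose by 0.55 ± 0.10 and 1.39 ± 0.10.

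Genes that fell in both tissues and more in muscle included Gpc1, a cell surface proteoglycan, which fell by 0.75 ± 0.10 in heart and 1.66 ± 0.10 in muscle. Asb2, a ubiquitin ligase subunit of muscle, fell by 0.48 ± 0.10 and 1.44 ± 0.10. Skiv2l, an RNA helicase, fell by 0.55 ± 0.10 and 1.28 ± 0.10. Igf2r, the receptor that clears insulin-like growth factor 2, fell by 0.49 ± 0.09 and 1.12 ± 0.09. The interaction calls of Armh4, Fbp2, Asb2 and Gpc1 held in all 12 fits without 1 array, and those of Coasy, Skiv2l and Igf2r were lost in 6, 10 and 11. The heart call of Asb2 was lost in 11 of the 12.

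The heart-limited class held 34 probe sets that rose and 28 that fell, and 46 of the 62 carry 1 gene symbol. In muscle, 46 had a 95% interval within 1.5-fold in either direction and 45 had at least 1 group mean above the muscle median, with 31 meeting both. The others had a wider interval, a low signal, or an estimate away from 0 that did not pass, as for Npc1 (interval −0.74 to −0.20) and Ogdhl (0.15 to 0.63).

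Tlcd4, which encodes a TLC domain protein, had the largest interaction of the named heart-limited genes. In muscle its values were 7.71, 7.65 and 7.62 in wild type and 7.38, 7.48 and 7.62 in transgenic mice, and in heart 2.33, 3.05 and 2.41 and 5.15, 4.93 and 5.29. It was high in muscle of both genotypes and higher on every transgenic than on every wild type heart array. The heart rise of 2.53 ± 0.17 (adjusted p = 0.00023) started from a wild type mean just under the heart median of 2.62, so no fold is given. The muscle difference was −0.17 ± 0.17 and the interaction 2.70 ± 0.24 (adjusted p = 0.00104).

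Myl1, an essential light chain of fast skeletal myosin, had the same layout. It stood at 10.28, 10.05 and 10.13 in wild type and 10.29, 10.13 and 10.09 in transgenic muscle, and at 4.43, 4.41 and 4.62 and 6.05, 6.26 and 5.72 in heart. The genotypes overlapped in muscle and stood apart in heart by 2.87-fold (1.52 ± 0.14), with an interaction of 1.5 ± 0.19 (adjusted p = 0.00512). Of 17 measured fast fibre genes, Myl1 was the 1 that rose in heart. Of the 9 skeletal fibre markers, 0 rose in heart and 1 fell, Acta1, skeletal actin, by 1.18 ± 0.18, and the interaction of Acta1 just missed the threshold (adjusted p = 0.0504). The summed signal of the skeletal fibre markers was 2104 to 2509 in wild type and 1735 to 1896 in transgenic heart. As 7 of the 9 were not above the heart median, that sum rests mainly on Acta1 and Ckm. Ano5, an anoctamin of muscle membranes, stood at 2.01, 2.13 and 2.18 in wild type and 3.17, 3.27 and 3.22 in transgenic heart, a rise of 1.11 ± 0.12 from values under the heart median, and at 7.83 to 8.42 over both genotypes in muscle, with overlap.

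Nppa encodes the precursor of atrial natriuretic peptide, a hormone abundant in atria that rises in ventricles under load. Its heart values were 9.47, 9.88 and 9.75 in wild type and 10.81, 11.20 and 11.17 in transgenic mice, and the muscle values, 1.61 to 2.13, lay below the muscle median of 2.45. The heart groups stood 2.57-fold apart (1.36 ± 0.16, adjusted p = 0.00439). The interaction of 1.32 ± 0.23 (adjusted p = 0.0252) was lost in 7 of the 12 fits without 1 array (adjusted p 0.0561 to 0.07). Atrial markers varied between the hearts: Myl7, the atrial regulatory light chain, was 4.52, 6.83 and 6.69 in wild type and 4.53, 7.42 and 6.84 in transgenic heart, so array 1 of each genotype was low. The summed signal of 12 atrial markers, Nppa among them, was 2312 to 2960 in wild type and 3520 to 5166 in transgenic heart, and 2 of the 12 were called as higher. The part of atrial tissue in the Nppa result was not tested.

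Atp6v0e2, a subunit of the vacuolar proton pump, rose by 1.25 ± 0.12 in heart and differed by 0.24 ± 0.12 in muscle. Npc1, which exports cholesterol from lysosomes, was 6.74, 6.61 and 7.04 in wild type and 7.49, 7.62 and 7.63 in transgenic heart, and 7.96, 8.05 and 8.14 and 7.59, 7.42 and 7.74 in muscle. The groups stood apart in both tissues, in opposite directions. The heart rise of 0.78 ± 0.12 passed, and the muscle difference of −0.47 ± 0.12 did not (adjusted p = 0.0546). Morn4 and 2610002M06Rik gave 0.82 ± 0.14 and 0.83 ± 0.16 in heart and −0.39 ± 0.14 and −0.40 ± 0.16, neither of which passed, in muscle. Interaction calls of Tlcd4, Myl1, Ano5, Npc1 and Morn4 held in every fit without 1 array, and those of Atp6v0e2 and 2610002M06Rik were lost in 7 and 10. The heart call was lost in 4 of the 12 fits each for Npc1 and Morn4 and in 11 for 2610002M06Rik.

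Among genes that fell in heart, Plxnb1, a semaphorin receptor, was 5.68, 5.37 and 5.76 in wild type and 4.26, 4.11 and 4.11 in transgenic heart. In muscle it was 2.74, 2.81 and 2.85 and 2.87, 2.59 and 2.69. It was 2.71-fold lower in heart (−1.44 ± 0.12) with no overlap, and overlapped in muscle (−0.08 ± 0.12), and a second probe set of the gene was not above the median in either tissue. Scgb1c1, a secretoglobin, fell by 1.27 ± 0.12 in heart and lay below the median in muscle, as did Gsg1l, which fell by 0.89 ± 0.10. Fam124b had the largest interaction of those that fell (−2.46 ± 0.33), with −1.78 ± 0.23 in heart and 0.68 ± 0.23, which did not pass, in muscle. Emilin2, an elastin-associated matrix protein, fell by 1.25 ± 0.16, and its interaction was lost in 10 of the 12 fits without 1 array. Mob3b fell by 0.61 ± 0.10, and its heart call was lost in 4 of the 12 fits without 1 array.

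Several enzymes of fuel use fell in heart only. Ogdhl, a relative of the oxoglutarate dehydrogenase of the citric acid cycle, stood at 7.69, 7.76 and 7.84 in wild type and 7.12, 6.89 and 7.08 in transgenic heart, with no overlap. It fell by 0.74 ± 0.11 there and differed by 0.39 ± 0.11 in muscle (adjusted p = 0.0706). Ugp2, which makes the sugar donor of glycogen synthesis, fell by 0.56 ± 0.10 in heart and differed by 0.37 ± 0.10 in muscle, where it just missed (adjusted p = 0.0503). Acsl6, an acyl-CoA synthetase, and Gpd1l, a relative of glycerol-3-phosphate dehydrogenase, fell by 0.89 ± 0.13 and 0.70 ± 0.13, while a second Gpd1l probe set, not above the median in heart, gave 0.13 there with no call.

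Of 22 measured genes of glycolysis and glucose use, 1 rose and 2 fell in heart, 1 rose and 2 fell in muscle, and 3 had an interaction call. The shares of all probe sets were 0.605% and 0.659% in heart, 2.51% and 3.04% in muscle and 1.13% for the interaction. Hk1, a hexokinase, fell by 0.75 ± 0.11 in heart and differed by 0.07 ± 0.11 in muscle. Gys1, muscle glycogen synthase, fell by 0.48 ± 0.08 in heart and differed by 0.20 ± 0.08 in muscle. Without 1 array the interaction was lost in 11 of 12 fits for Hk1, 9 for Gys1, 11 for Gpd1l, 1 for Acsl6 (without transgenic skeletal muscle replicate 3, adjusted p = 0.0505), and 0 for Ogdhl and Ugp2. The heart call was lost in 8 of those fits for Gpd1l and 5 for Ugp2. Ugp2 was called in muscle in 2 of them and Ogdhl in 1.

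Of 19 measured genes of the unfolded protein response, 6 fell in heart, and 1 fell and 1 rose in muscle, with list medians of −0.39 and −0.17. Xbp1, a transcription factor of that response, was the 1 with an interaction call. It was 8.24, 8.24 and 8.40 in wild type and 7.53, 7.81 and 7.61 in transgenic heart, and 7.81 to 7.93 over both genotypes in muscle. The heart groups stood apart by 0.64 ± 0.09 and the muscle groups overlapped. Its interaction of −0.66 ± 0.13 (adjusted p = 0.039) was lost in 11 of the 12 fits without 1 array.

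**Figure D3:**
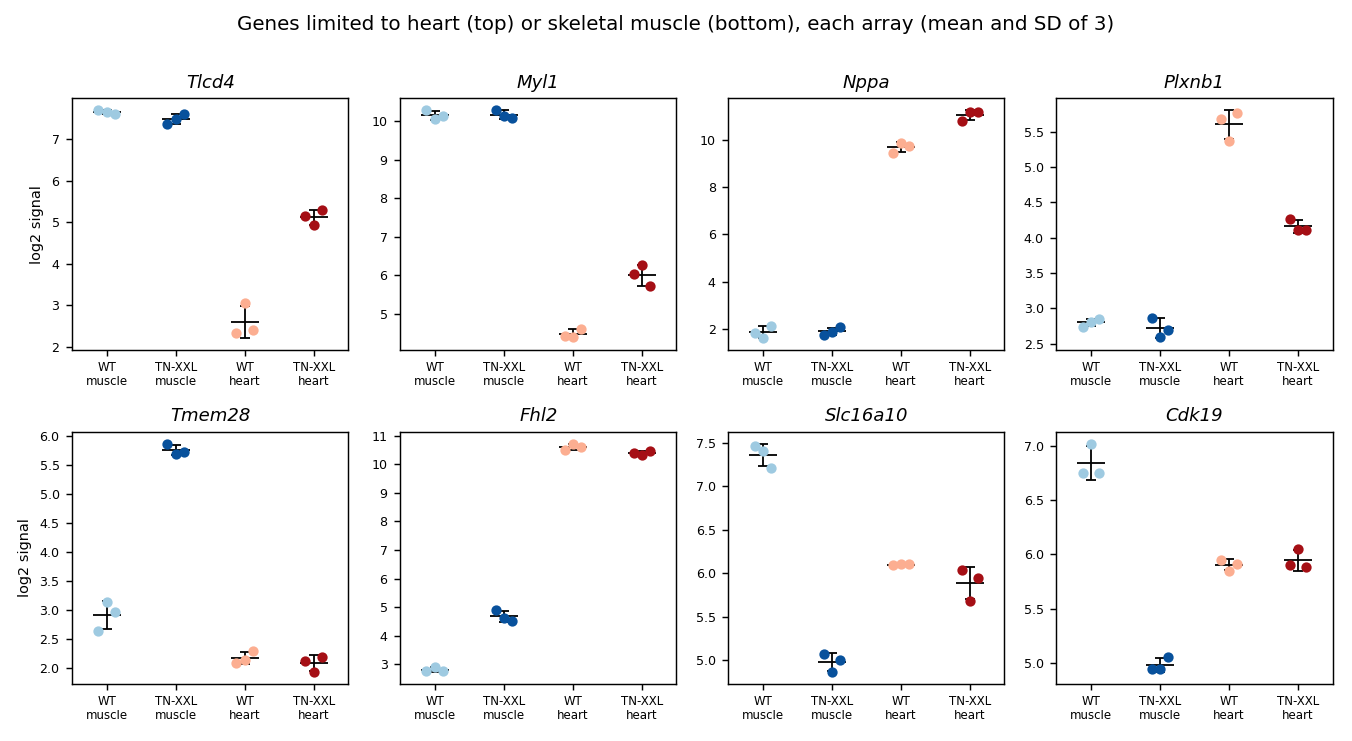
Log2 signal on each of the 12 arrays, with the mean and SD of each group of 3, for 4 genes limited to heart (top) and 4 limited to skeletal muscle (bottom). Tlcd4, Myl1 and Nppa were raised and Plxnb1 lowered in transgenic heart, and Tmem28 and Fhl2 were raised and Slc16a10 and Cdk19 lowered in transgenic muscle.

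The muscle-limited class held 117 probe sets that rose and 182 that fell, covering 244 named genes. In heart, 232 of the 299 had a 95% interval within 1.5-fold, 257 had at least 1 group mean above the heart median, and 206 met both. The other 42 were not above that median, where a fall may not be measurable.

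Fhl2, a LIM domain protein abundant in heart, rose in muscle. In muscle it stood at 2.76, 2.91 and 2.76 in wild type and 4.90, 4.63 and 4.53 in transgenic mice, and in heart at 10.51, 10.72 and 10.60 and 10.40, 10.33 and 10.46. The muscle groups stood 3.68-fold apart (1.88 ± 0.11, adjusted p = 1.41e-05). The transgenic heart arrays lay below the wild type ones without passing (−0.21 ± 0.11, adjusted p = 0.474), and the interaction was −2.09 ± 0.15 (adjusted p = 0.000404). The summed signal of 7 cardiomyocyte markers in muscle was 2100 to 2226 in wild type and 2738 to 3080 in transgenic arrays. Of the 7, Actc1 was the 1 called as higher. Tnni3, Nkx2-5, Mybpc3, Hand2 and Tbx20 were not above the median there, so the sum rests mainly on Tnnt2 and Actc1. Whether cardiac cells were present in the muscle samples or had a part in the Fhl2 result was not tested.

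Rrad, a small GTPase that restrains calcium channels, was 2.49, 3.11 and 2.49 in wild type and 4.27, 3.48 and 3.55 in transgenic muscle, and 8.24, 8.24 and 8.41 and 7.74, 7.05 and 6.79 in heart. The groups stood apart in both tissues, in opposite directions. The muscle rise of 1.07 ± 0.27 passed (adjusted p = 0.0485) and the heart difference of −1.11 ± 0.27 did not (adjusted p = 0.0888). Its muscle call was lost in 9 and its interaction call in 7 of the 12 fits without 1 array. Pam, which amidates peptide hormones, rose by 1.06 ± 0.09 in muscle and differed by 0.08 ± 0.09 in heart.

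Tmem28 had the largest interaction of the named genes that rose in muscle. Its values were 2.64, 3.13 and 2.96 in wild type and 5.87, 5.70 and 5.72 in transgenic muscle, and 1.92 to 2.28 in heart, where the genotypes overlapped below the median. It rose 7.25-fold (2.86 ± 0.13, adjusted p = 3.63e-06). BC051142 rose by 2.78 ± 0.13 and Ift27, a small GTPase of transport in cilia, by 2.57 ± 0.12, against heart differences of 0.45 ± 0.13 and 0.38 ± 0.12 that did not pass. Snai3, a repressor of the Snail family, rose by 2.56 ± 0.17, Zfp385a, a zinc finger protein, by 1.67 ± 0.18, and Cilp, a matrix protein of cartilage, by 1.75 ± 0.26, with the Cilp interaction lost in 6 of the 12 fits without 1 array.

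Nr4a3, an orphan nuclear receptor induced by muscle activity, was 3.49, 4.69 and 3.34 in wild type and 6.43, 5.98 and 6.16 in transgenic muscle, and 2.51 to 3.12 in heart, with overlap. It rose 5.1-fold in muscle (2.35 ± 0.31). Of 23 measured immediate early genes, 4 rose and 1 fell in muscle, 1 rose in heart, and 2 had an interaction call, Nr4a3 and Egr1. Those calls were lost in 10 and 8 of the 12 fits without 1 array. All probe sets were called at 2.51% higher and 3.04% lower in muscle, 0.605% higher in heart and 1.13% for the interaction.

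Mir675 and Igf2 both rose in muscle. They are imprinted genes of the same chromosome region, in which Mir675 is cut from the H19 RNA. The probe set annotated to Mir675 stood at 7.55, 7.25 and 8.58 in wild type and 10.46, 10.27 and 10.41 in transgenic muscle, and at 4.12 to 4.43 in heart. It rose 6.01-fold in muscle (2.59 ± 0.26, adjusted p = 0.000275), with −0.19 ± 0.26 in heart and an interaction of −2.78 ± 0.37 (adjusted p = 0.00631). Igf2, a growth factor of fetal life, stood at 5.49, 5.58 and 6.11 and then 7.46, 7.45 and 7.64 in muscle, and at 5.98, 5.79 and 6.26 and 6.09, 5.65 and 5.74 in heart. It rose 3.46-fold in muscle (1.79 ± 0.18), while its heart values overlapped. Both interactions held in every fit without 1 array. The array labels whole transcripts, so this probe set does not separate the microRNA from its precursor or host RNA. The mature forms are shown to identify the gene, from RefSeq (GRCm38.p6), with the seed, bases 2 to 8, in capitals.
miR-675-5p, chr7:142577112-142577133, minus strand: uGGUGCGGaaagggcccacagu
miR-675-3p, chr7:142577078-142577099, minus strand: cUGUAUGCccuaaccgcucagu

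The arms have different seeds and so fall in different seed groups.

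Muscle-limited genes that fell were led by 1700001O22Rik, Kcnf1, Gm4861 and Adcy2, whose heart values were not above the heart median. Adcy2, an adenylyl cyclase, which makes cyclic AMP, was 7.31, 7.37 and 6.97 in wild type and 4.50, 4.72 and 4.47 in transgenic muscle. The groups stood 6.31-fold apart (−2.66 ± 0.14, adjusted p = 1e-05). 1700001O22Rik fell by 3.08 ± 0.23, Gm4861 by 2.52 ± 0.23, and Kcnf1, a modifying subunit of potassium channels, by 2.53 ± 0.32, with the Kcnf1 interaction lost in 10 of the 12 fits without 1 array. Ppp1r27, a regulator of protein phosphatase 1, fell by 1.81 ± 0.14 and was likewise not above the median in heart.

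Others had clear signal in heart. Cdk19, a kinase of the Mediator complex, was 6.75, 7.02 and 6.75 in wild type and 4.94, 4.94 and 5.05 in transgenic muscle, and 5.95, 5.85 and 5.91 and 5.90, 6.05 and 5.88 in heart. The muscle groups stood 3.64-fold apart (−1.86 ± 0.10, adjusted p = 6.41e-06) and the heart groups overlapped, with an interval of −0.17 to 0.25. Slc16a10, a carrier of aromatic amino acids, was 7.46, 7.40 and 7.21 and then 5.07, 4.86 and 5.0 in muscle, and 6.09, 6.10 and 6.10 and 6.03, 5.68 and 5.94 in heart. It was 5.2-fold lower in muscle (−2.38 ± 0.11) and differed by −0.21 ± 0.11 in heart, with an interaction of 2.16 ± 0.16 (adjusted p = 0.000393).

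Ttll7, a tubulin polyglutamylase, fell by 2.11 ± 0.16 in muscle, Sv2b, a vesicle glycoprotein, by 1.60 ± 0.14, and Cdh4, a cadherin, by 1.67 ± 0.22. Sv2b differed by 0.56 ± 0.14 in heart without passing (adjusted p = 0.0937). The interaction of Cdh4 was lost in 3 of the 12 fits without 1 array (adjusted p 0.0506 to 0.053).

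Genes of growth hormone signalling were called in muscle and not in heart. Growth hormone acts through its receptor, JAK2 and STAT5, which raises Igf1, Cish and Socs2, and the last pair then damp the signal. Of 16 measured genes, 8 fell and 1 rose in muscle, 0 were called in heart in limma, and 6 had an interaction call, 5 relatively higher in heart. The list's median was −0.46 in muscle, −0.05 in heart and 0.42 for the interaction, against 0.016, 0.003 and −0.014 over all probe sets.

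Igf1, the growth factor that carries much of the hormone's action, was 6.16, 6.08 and 6.12 in wild type and 5.24, 5.31 and 4.99 in transgenic muscle, and 4.78, 4.85 and 4.87 and 4.68, 4.78 and 4.65 in heart. The muscle groups stood 1.91-fold apart (−0.94 ± 0.09), and in heart the difference was −0.13 ± 0.09, with an interaction of 0.81 ± 0.13 (adjusted p = 0.018). Cish was 6.40, 7.08 and 7.02 in wild type and 5.16, 4.57 and 4.32 in transgenic muscle, and 7.41, 7.59 and 7.20 and 7.31, 7.02 and 6.98 in heart. It was 4.43-fold lower in muscle (−2.15 ± 0.23), and its heart groups overlapped. Socs2 fell by 1.35 ± 0.17 in muscle, Igfbp5, which binds insulin-like growth factors, by 1.11 ± 0.13, and Bcl6, a repressor at STAT5 sites, by 1.46 ± 0.14. The receptor Ghr fell by 0.46 ± 0.09 in muscle, with no interaction call (adjusted p = 0.107). Igf2 was the member that rose. Interaction calls of Igf2 and Bcl6 held in all 12 fits without 1 array. Those of Igfbp5, Cish and Socs2 were lost in 7, 9 and 9, and that of Igf1 without wt heart replicate 1 or transgenic heart replicate 2 (adjusted p 0.0522 to 0.0527).

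**Figure D4:**
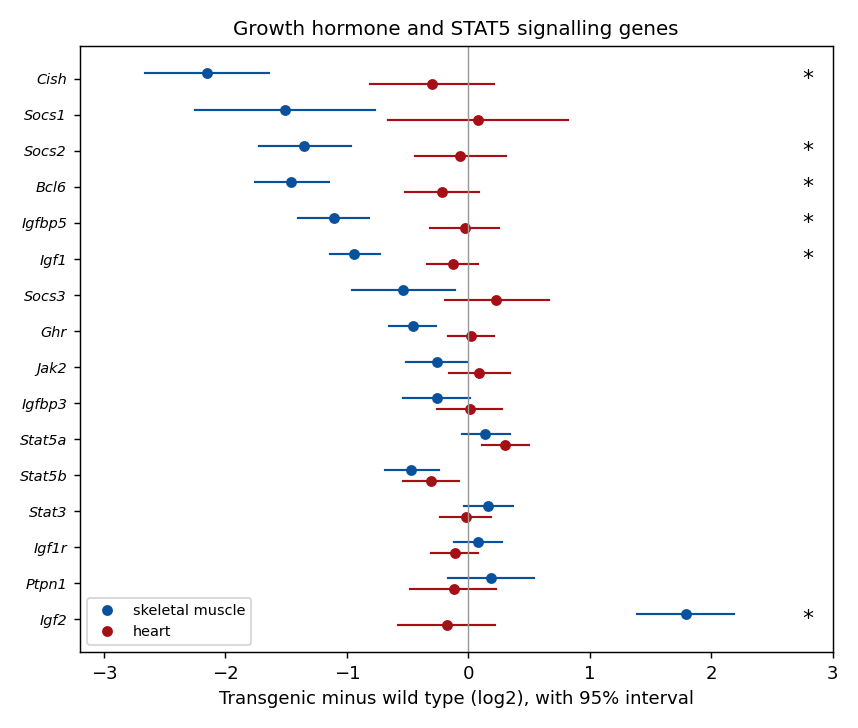
Genotype difference (transgenic minus wild type, log2) with its 95% interval in skeletal muscle and in heart for the 16 measured genes of the growth hormone and STAT5 list. Asterisks mark the 6 genes with an interaction call: the muscle estimates of Cish, Socs2, Bcl6, Igfbp5 and Igf1 lie below 0 and that of Igf2 above it.

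Enzymes and carriers that supply growth were measured too. Odc1, the first enzyme of polyamine synthesis, was 6.87, 7.16 and 6.78 in wild type and 4.97, 4.69 and 5.03 in transgenic muscle, and 4.99, 5.16 and 4.80 and 4.69, 4.82 and 4.78 in heart. The muscle groups stood 4.11-fold apart (−2.04 ± 0.13) and the heart groups overlapped (−0.22 ± 0.13), with an interaction of 1.82 ± 0.19 (adjusted p = 0.00245). Sms, spermine synthase, fell by 0.76 ± 0.11 in muscle and differed by 0.45 ± 0.11 in heart without passing (adjusted p = 0.0818). Of 7 measured polyamine genes, 3 fell in muscle, 0 were called in heart in limma, and 2 had an interaction call. Slc38a2, a carrier of small neutral amino acids, fell by 1.25 ± 0.13 in muscle and differed by 0.18 ± 0.13 in heart. Of 12 measured amino acid and monocarboxylate carriers, 3 fell in muscle, 1 rose in heart and 3 had an interaction call. Among all probe sets, 3.04% fell in muscle, 0.605% rose in heart and 1.13% had an interaction call. The calls of Odc1, Sms, Slc38a2 and Slc16a10 held in each fit without 1 array.

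Of 15 measured genes of denervation and the neuromuscular junction, 2 rose and 2 fell in muscle, 0 were called in heart in limma, and 3 had an interaction call. Among all probe sets, 2.51% rose and 3.04% fell in muscle, and 1.13% had an interaction call. Runx1, a transcription factor that rises in denervated muscle, was 3.53, 3.58 and 3.77 in wild type and 5.53, 4.95 and 5.24 in transgenic muscle, with no overlap, and rose by 1.61 ± 0.15. Musk, the receptor kinase that organises the junction, fell by 1.21 ± 0.14, and Chrnb1, an acetylcholine receptor subunit, by 1.14 ± 0.15. Musk was not above the median in heart. The interaction of Runx1 held in every fit without 1 array, and those of Musk and Chrnb1 were lost in 8 and 10.

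Of 26 measured genes of calcium buffering and calmodulin signalling, 1 rose and 4 fell in muscle, 1 fell in heart and 3 had an interaction call. Among all probe sets, 2.51% rose and 3.04% fell in muscle, 0.659% fell in heart and 1.13% had an interaction call. Ppp3cb, a catalytic subunit of calcineurin, was 8.08, 8.06 and 8.0 in wild type and 7.24, 7.05 and 7.21 in transgenic muscle. The muscle groups did not overlap, and it fell by 0.88 ± 0.10 there and differed by −0.01 ± 0.10 in heart. Rcan2, a calcineurin inhibitor related to Rcan1, fell by 0.80 ± 0.09 in muscle and differed by 0.04 ± 0.09 in heart. Nfatc2, which calcineurin sends to the nucleus to turn on genes, rose by 0.88 ± 0.10 in muscle, and its interaction was lost in 11 of the 12 fits without 1 array.

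Gclm, which helps to make glutathione, fell by 1.04 ± 0.08 in muscle and differed by −0.21 ± 0.08 in heart (interaction 0.82 ± 0.12, adjusted p = 0.00842). Phlda3, a p53 target, rose by 1.21 ± 0.13 in muscle, with its interaction lost in 5 of the 12 fits without 1 array. Pax7, the transcription factor of satellite cells, fell by 1.04 ± 0.11 in muscle, with its interaction lost in 10. The summed signal of 5 satellite cell markers in muscle was 64 to 82 in wild type and 48 to 50 in transgenic arrays.

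Calls in muscle alone did not always come with an interaction. Mt2, a metallothionein, which binds zinc, was 6.75, 6.54 and 7.29 in wild type and 9.87, 9.81 and 10.03 in transgenic muscle, and 6.81, 7.30 and 8.53 and 8.65, 8.95 and 9.31 in heart. The transgenic arrays were higher in both tissues without overlap. It rose by 3.04 ± 0.37 in muscle and differed by 1.42 ± 0.37 in heart (adjusted p = 0.101), and the interaction was not called (adjusted p = 0.218). Of 40 measured subunits of oxidative phosphorylation, 7 rose in muscle, and 0 had a heart or interaction call in limma. In muscle 2.51% of all probe sets rose.

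Differences of opposite sign were called for 12 probe sets, of which 9 name 1 gene, 1 lists several and 2 have no symbol. Of the 9 genes, 7 were higher in transgenic heart and lower in transgenic muscle, and 2 the reverse. Ddit4l, an inhibitor of the growth kinase mTORC1 in muscle, had the largest interaction. It was 10.07, 9.99 and 9.54 in wild type and 8.28, 8.13 and 7.76 in transgenic muscle, and 3.66, 3.46 and 2.69 and 5.56, 5.27 and 4.79 in heart. Every transgenic array was lower in muscle and higher in heart. The difference was 1.94 ± 0.27 in heart (adjusted p = 0.00791) and −1.81 ± 0.27 in muscle (adjusted p = 0.00317), with an interaction of 3.75 ± 0.39 (adjusted p = 0.00245).

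Mstn encodes myostatin, a secreted brake on muscle growth. It was 8.15, 8.05 and 7.96 in wild type and 7.25, 7.13 and 7.44 in transgenic muscle, and 2.05, 2.04 and 2.05 and 3.06, 2.61 and 2.78 in heart. All wild type heart values lay under the heart median of 2.62, so the heart rise of 0.77 ± 0.12 started from background, while the fall in muscle of 0.78 ± 0.12 was at high signal. Of 19 measured genes of atrophy and growth restraint, 3 rose in heart and 3 fell in muscle, and Ddit4l and Mstn were the 2 with an interaction call. Among all probe sets, 0.605% rose in heart, 3.04% fell in muscle and 1.13% had an interaction call.

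Pfkfb3, which makes the activator of glycolysis fructose-2,6-bisphosphate, was 8.62, 9.11 and 9.25 and then 8.26, 8.14 and 8.0 in muscle, and 3.35, 3.27 and 3.43 and then 3.96, 4.49 and 4.56 in heart. The groups stood apart in both tissues, by −0.86 ± 0.19 and 0.99 ± 0.19. Slc38a4, a carrier of neutral amino acids, differed by 0.61 ± 0.12 in heart and −1.39 ± 0.12 in muscle, and Sema3c, a secreted semaphorin, by 0.91 ± 0.13 and −0.81 ± 0.13. Jpt1 differed by 0.73 ± 0.09 and −0.39 ± 0.09. Lrrc20 differed by 0.75 ± 0.13 and −0.58 ± 0.13, but a second, brighter probe set of that gene gave −0.22 and −0.25 with no call.

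Fnip2, a partner of folliculin in nutrient sensing, and Ckap4, a membrane protein of the endoplasmic reticulum, ran the other way. Fnip2 was 3.46, 2.81 and 2.96 and then 3.86, 3.76 and 3.76 in muscle, and 5.32, 5.46 and 5.32 and then 4.38, 4.71 and 4.72 in heart. Its transgenic arrays were higher in muscle and lower in heart, by 0.72 ± 0.16 and −0.76 ± 0.16. Ckap4 differed by 0.62 ± 0.14 in muscle and −0.74 ± 0.14 in heart.

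The interaction of all 9 genes held in every fit without 1 array, but the calls within a tissue held less often. Ddit4l and Sema3c kept both calls in all 12 fits. The heart call was lost in 10 fits for Fnip2, 9 for Ckap4, 7 for Slc38a4, 6 for Pfkfb3, and 4 each for Mstn and Lrrc20, and the muscle call in 8 for Jpt1, 5 for Fnip2, and 4 each for Pfkfb3, Lrrc20 and Ckap4. With the heart arrays alone, 0 of the 9 were called in limma, at adjusted p from 0.0556 to 0.118.

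**Figure D5:**
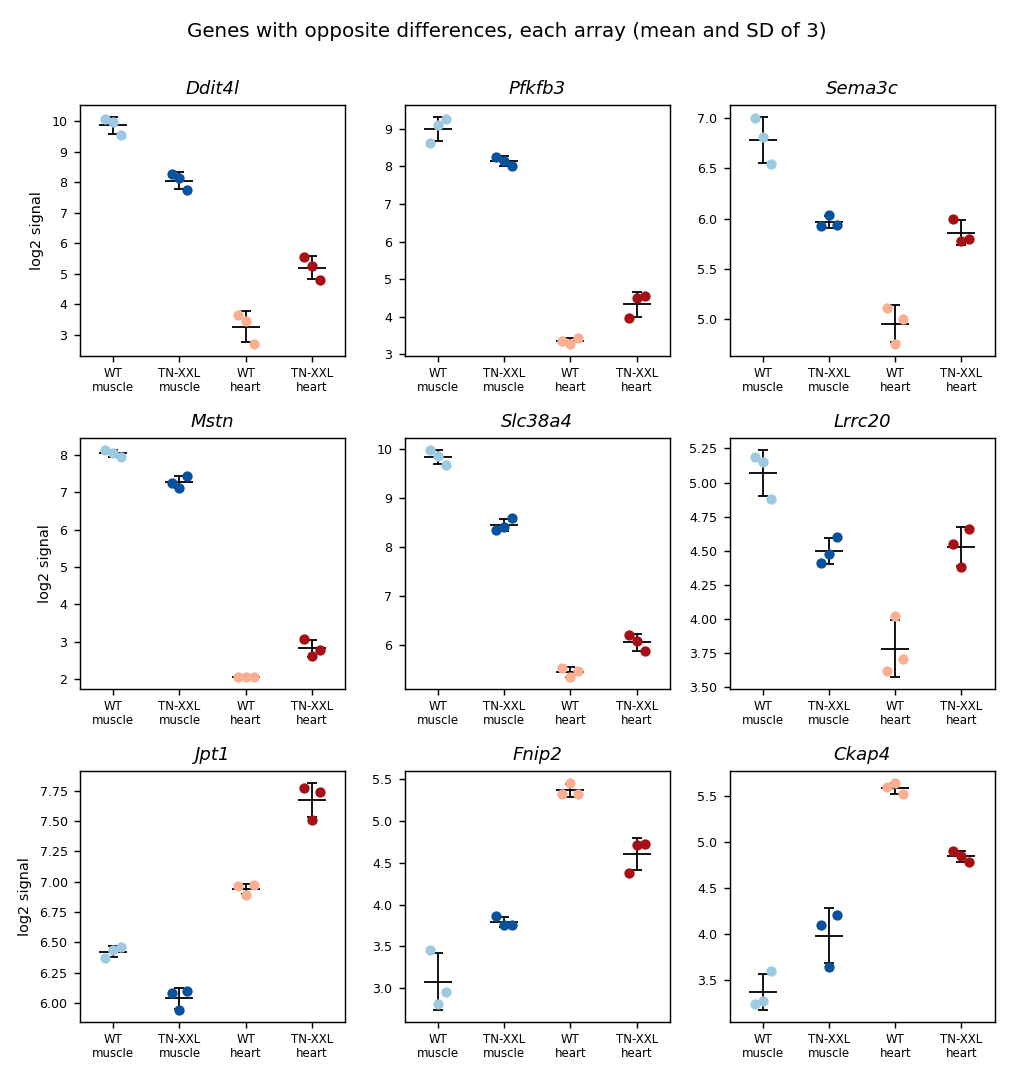
Log2 signal of the 9 named genes of opposite sign on each of the 12 arrays, with the mean and SD of each group of 3. Ddit4l, Pfkfb3, Sema3c, Mstn, Slc38a4, Lrrc20 and Jpt1 were lower in transgenic muscle and higher in transgenic heart, and Fnip2 and Ckap4 the reverse, without overlap in either tissue.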

How the data were processed

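RNA was extracted with RNeasy Midi columns and hybridised to Affymetrix whole-transcript arrays, per the labels' protocols. Per the submitters' processing notes, the deposited log2 signals came from RMA and R 2.10.0. The chip definition used for them is not given in the sources used here. Depth does not apply to arrays.

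The 12 arrays were fitted in limma 3.58.1 (R 4.3.3) with a mean per group, 8 residual and 2.70 prior degrees of freedom and two-sided Benjamini-Hochberg adjusted p-values over 35382 probe sets, of which 21153 name 1 gene, 1867 several and 12362 none. Scripts were tested on simulated data, and figures drawn in matplotlib 3.10.9 (Python 3.11.15). "Above the median" refers to all values of a tissue, 2.62 in heart and 2.45 in muscle.

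Named genes are up to 10 a direction for shared (by the smaller difference), limited (by the interaction) and opposite genes, up to 6 of unequal size, and up to 4 a gene list plus members called in both tissues. Cish, Socs2, Ghr, Musk, Pax7, Tpst2 and other genes outside that rule were named after their values were seen. Members and lists were chosen with earlier results of these data known. Alternatives covered the arrays fitted, replicate blocks, filters, normalization, thresholds and leaving out each array.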

Additional observations from a re-analysis of the deposited data

Results flagged for a closer look

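The genotype difference of 56 named genes differed between heart and skeletal muscle by the interaction test itself (limma, adjusted p under 0.05), and each is given as heart minus muscle on the log2 scale. Groups of 3 arrays are too small to test for single outlying arrays. No explanation was tested for any of them.

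Among genes limited to heart, the interaction stood for those that rose with Tlcd4 at 2.70, Myl1 at 1.5, Ano5 at 1.35, Nppa at 1.32, Rhobtb1 at 1.27, Npc1 at 1.25, 2610002M06Rik at 1.23, Hlf at 1.22, Morn4 at 1.21 and Atp6v0e2 at 1.02. For those that fell it stood with Fam124b at −2.46, Scgb1c1 at −1.36, Plxnb1 at −1.36, Emilin2 at −1.17, Ogdhl at −1.13, Acsl6 at −1.10, Gsg1l at −1.04, Gpd1l at −0.99, Ugp2 at −0.93 and Mob3b at −0.86.

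Among genes limited to skeletal muscle, those that rose gave a negative interaction, with Tmem28 at −2.95, Mir675 at −2.78, Nr4a3 at −2.40, BC051142 at −2.33, Cilp at −2.20, Ift27 at −2.18, Rrad at −2.17, Fhl2 at −2.09, Zfp385a at −2.07 and Snai3 at −2.06. Those that fell gave a positive one, with 1700001O22Rik at 3.01, Kcnf1 at 2.53, Gm4861 at 2.38, Adcy2 at 2.24, Ttll7 at 2.19, Slc16a10 at 2.16, Sv2b at 2.16, Cdh4 at 1.94, Ppp1r27 at 1.91 and Cdk19 at 1.90.

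For genes of opposite sign, the interaction was positive where the heart value was higher, with Ddit4l at 3.75, Pfkfb3 at 1.85, Sema3c at 1.72, Mstn at 1.55, Slc38a4 at 1.99, Lrrc20 at 1.32 and Jpt1 at 1.12. It was negative for Fnip2 at −1.48 and Ckap4 at −1.36. Among genes of the same sign but unequal size, the larger difference lay in heart for Armh4 at 1.42 and in skeletal muscle for Fbp2 at −1.02, Asb2 at 0.96, Gpc1 at 0.91, Coasy at −0.85, Skiv2l at 0.72 and Igf2r at 0.64.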

How the results depend on the processing

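Over all 12 arrays there were 401 interaction, 447 heart, 1964 skeletal muscle, 145 shared, 10 unequal, 62 heart limited, 299 muscle limited and 12 opposite calls. Counts within 1.5 times of these are not listed. With all 18 arrays in the fit the calls were 903 interaction, 1128 heart, 349 shared, 29 unequal, 169 heart limited, 623 muscle limited and 36 opposite. With only probe sets above the median they were 678 interaction, 849 heart, 305 shared, 24 unequal, 118 heart limited, 485 muscle limited and 32 opposite, and with only probe sets of 1 symbol 632 interaction, 780 heart, 260 shared, 17 unequal, 107 heart limited, 451 muscle limited and 29 opposite; both test fewer probe sets. At an adjusted p under 0.01 they were 121 interaction, 146 heart, 864 skeletal muscle, 58 shared, 1 unequal, 12 heart limited, 102 muscle limited and 2 opposite, and under 0.10 687 interaction, 941 heart, 293 shared, 22 unequal, 125 heart limited, 485 muscle limited and 30 opposite. A 1.5-fold minimum beside the 0.05 threshold left 1154 skeletal muscle, 87 shared and 4 unequal. With each tissue fitted alone they were 36 heart, 838 skeletal muscle, 19 shared, 1 unequal, 11 heart limited and 0 opposite. An intensity trend with a robust prior gave 24 opposite. The cause of these changes was otherwise not tested.

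Leaving out 1 array at a time gave 196 to 286 interaction, 193 to 398 heart, 1260 to 1796 skeletal muscle, 81 to 125 shared, 3 to 6 unequal, 28 to 45 heart limited, 157 to 220 muscle limited, 3 to 9 opposite calls. Of the 56 named interaction calls, 41 held in all 12 such fits, and 0 of the named values changed sign in any setting run.

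Whether heart and muscle arrays of the same replicate number came from 1 animal could not be told from the values. Over all probe sets, deviations of same-numbered arrays of different groups correlated at −0.03 to 0.05, and of differently numbered ones at −0.07 to 0.05. Those ranges include pairs of different genotype, which cannot be 1 animal. Heart and muscle arrays of the same number correlated at 0.01, 0.04 and 0.03 in transgenic and −0.03, −0.01 and 0.01 in wild type mice. Transgenic Arntl and Per2 ran in the same order of number in both tissues, and their wild type arrays did not. With the number as a block the calls were 229 interaction, 5 unequal, 30 heart limited, 179 muscle limited and 7 opposite. With the number within genotype as a fixed block they were 70 interaction, 1 unequal, 7 heart limited, 56 muscle limited and 6 opposite, and 27 of the 56 named interactions held. As a random block (correlation 0.02) it moved no count by over 1.5 times. Centring the arrays, quantile normalization and array weights also moved none by that much, and the share of interaction calls higher in heart ran from 53.9% to 70.2% over all settings, against 60.8%.

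Signal over background limits the heart values of Tmem28, BC051142, 1700001O22Rik, Kcnf1, Gm4861, Adcy2 and Ppp1r27 and the muscle values of Nppa, Scgb1c1 and Gsg1l, where neither group mean passed the median of the tissue. One of the group means behind the difference lay under it for Tlcd4, Ano5, Fam124b, Mstn, Hyal3 and Sv2b in heart and for Ciart, Hyal3, Mfsd4b3-ps, Ogdhl, BC051142, 1700001O22Rik, Kcnf1, Gm4861, Sv2b and Armh4 in muscle.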

Other observations

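Some genes of the classes lie side by side. All 426 class genes with 1 symbol matched the RefSeq gene order, and 19 pairs had at most 2 genes between them. How many such pairs as many genes taken at random would give was not worked out, so the count does not show clustering. Gm4861 and Ddit4l are direct neighbours: both were lower in transgenic muscle (−2.52 and −1.81), while in heart Gm4861 differed by −0.14 and Ddit4l by 1.94. Mfsd4b1 and Slc16a10, with 1 gene between them, were both lower in muscle (−1.77 and −2.38), and in heart Mfsd4b1 differed by −1.45 and Slc16a10 by −0.21. Tef and Tob2, with 1 gene between them, rose in heart (1.42 and 1.00) and muscle (1.07 and 0.84). Ccn1 and Ddah1, likewise 1 gene apart, fell in heart (−1.05 and −1.15) and muscle (−0.71 and −1.40). Peg10, an imprinted gene derived from a retrotransposon, rose by 1.57 in muscle, while Casd1, 2 genes away, fell by 0.64 there. Snai3 and Piezo1, a channel opened by stretch, moved apart in muscle (2.56 and −1.34). These pairs were found after the values were seen and are given as values.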
